A study of Mus musculus with 112 samples.

Results

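A pair of groups of mice was set against each other: the 12 animals whose calf muscle gained the most type I and type III collagen transcript in a casted limb and the 12 that gained the least or lost it. They were chosen by their own expression values. For each mouse, the change was the cast limb minus the control limb in log2(CPM + 1), where CPM is a gene's count scaled to a common library total of 1e+06 counts, and the score was the mean change of Col1a1 and Col3a1. Of 56 mice, 12 were left out by their numbers before ranking, the 12 highest and 12 lowest of the remaining 44 formed the groups, and 20 ranked between them. The comparison therefore holds 48 of the 112 libraries. All animals came from the Diversity Outbred stock, whose members each carry their own mix of founder genomes. They were 16-week-old mice with 1 limb in a cast for 3 weeks and the opposite limb as the control. RNA came from the gastrocnemius, a calf muscle. The high-score mice were 6 females and 6 males, the low-score mice 5 females and 7 males, and no genotype, drug or transgene sets the groups apart in the labels.

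Fibrillar collagens are rods of 3 chains that assemble outside the cell into the fibres of connective tissue. Type I collagen is built from the chains encoded by Col1a1 and Col1a2, and type III from Col3a1 alone. In muscle they are made mainly by fibroblasts and fibro-adipogenic progenitors between the fibres, then folded with the help of chaperones in the endoplasmic reticulum, trimmed by procollagen proteinases and crosslinked by lysyl oxidases. Muscle held in a cast loses fibre mass, and its connective tissue is remodelled at the same time.

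Upstream sequences are shown for Col3a1, which chose the mice, and for Col1a2 and Col6a1, which followed the score in animals outside the groups, so that the transcripts that moved together can be seen beside the DNA before their starts. Each is the 250 bases before the start listed by RefSeq for GRCm38.p6, matched by symbol and written on the gene's own strand. Capitals mark CCAAT on either strand, TATAAA on either strand, or TGANTCA, the motif of AP-1 factors, which reads alike on both strands. The stretches lie at chr6:4505368-4505617 on the plus strand for Col1a2, chr1:45311288-45311537 on the plus strand for Col3a1 and chr10:76726045-76726294 on the minus strand for Col6a1.
Col1a2: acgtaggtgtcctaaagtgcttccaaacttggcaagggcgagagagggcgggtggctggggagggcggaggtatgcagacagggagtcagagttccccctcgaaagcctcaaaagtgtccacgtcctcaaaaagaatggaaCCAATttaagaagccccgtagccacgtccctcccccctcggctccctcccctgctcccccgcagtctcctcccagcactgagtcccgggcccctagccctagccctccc
Col3a1: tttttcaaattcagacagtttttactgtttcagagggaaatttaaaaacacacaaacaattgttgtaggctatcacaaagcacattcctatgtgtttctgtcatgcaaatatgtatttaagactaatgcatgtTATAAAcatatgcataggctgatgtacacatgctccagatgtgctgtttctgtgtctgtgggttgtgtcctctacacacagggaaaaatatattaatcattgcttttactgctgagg
Col6a1: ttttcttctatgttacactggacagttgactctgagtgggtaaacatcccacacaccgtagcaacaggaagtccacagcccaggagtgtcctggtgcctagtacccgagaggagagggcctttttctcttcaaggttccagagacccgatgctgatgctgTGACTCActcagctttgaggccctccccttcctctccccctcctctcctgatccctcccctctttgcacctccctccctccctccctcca
Each stretch held 1 of the motifs. Over 32851 listed promoters of the same length, CCAAT was present in 33.8%, TATAAA in 12.4% and TGANTCA in 6.75%. Promoters of 1 chromosome were left out of this set. Of the 15 genes that followed the score in the mice outside the groups, 9 had an entry in this reduced set. CCAAT was present for 3 (Col1a2, Lpar1, Thbs2), TATAAA for 2 (Fndc1, Thbs2) and TGANTCA for 2 (Col6a1, Emp1). These matches describe letters in a window. GENCODE places the gene starts of Col1a2 and Col6a1 further upstream in the same build, so at least part of both windows lies after those starts.

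Total counts ran from 2101781 to 6290989 in the 48 libraries, with a median of 4401716, so 1 CPM stands for about 4 counts. Some libraries of the 12 mice left out stood apart from the rest. In 1 of these mice the control limb held skeletal actin, Acta1, at 5.30 CPM, whereas the lowest of the 88 ranked libraries held 17640 CPM, and the summed lymphocyte markers reached 35189 CPM in a left-out cast limb and 459 CPM at most in a library of the ranked mice. Mice 30, 31 and 13 of the groups also stood apart. The cast limb of female 30, in the high-score group, held 10284 CPM of skin and cartilage markers, almost all keratins, against at most 62.4 CPM in the other libraries of both groups. The cast limb of male 31, also high-score, held the most adipocyte and macrophage markers of its group's cast limbs, 12182 and 2426 CPM. The control limb of male 13, in the low-score group, held 18908 CPM of adipocyte markers, the most of the 48 libraries.

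In the high-score mice both collagen genes were higher in the cast limb of all 12 animals. Col1a1 lay at 41.1, 176 and 812 CPM (lowest, median and highest) in their control limbs and at 302, 1754 and 2810 CPM in their cast limbs. Col3a1 lay at 37.3, 103 and 288 CPM in the control limbs and at 213, 707 and 2477 CPM in the cast limbs. The control and cast ranges of Col1a1 and of Col3a1 overlapped between animals, but within each animal the cast limb was the higher.

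The low-score mice had higher medians in the control limb and lower ones in the cast limb. Col1a1 lay at 295, 624 and 1182 CPM in their control limbs and at 85.3, 262 and 745 CPM in their cast limbs, and was lower in the cast limb of 11 of 12. Col3a1 lay at 109, 249 and 526 CPM in the control limbs and at 55.1, 159 and 439 CPM in the cast limbs, and was lower in 8 of 12. In 7 of the 12 both genes were lower, and in 5 only 1 of the pair was. The name of mice losing collagen therefore holds for Col1a1 better than for Col3a1, which was up in males 58, 59 and 53 and female 21 by 0.31 to 0.46 on the log2 scale.

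**Figure D1:**
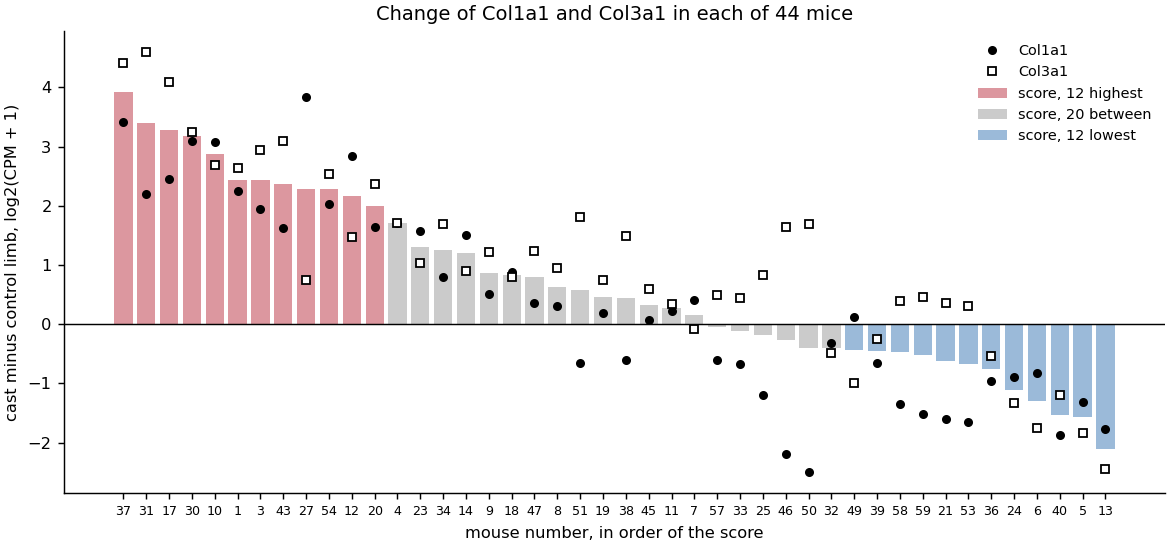
The 44 ranked mice in order of their score (x axis, mouse numbers) with the cast minus control difference in log2(CPM + 1) on the y axis; bars give the score, filled circles Col1a1 and open squares Col3a1, with the 12 highest in red, the 20 between in grey and the 12 lowest in blue. Both genes lie above 0 in all 12 high-score mice, while Col3a1 lies above 0 in 4 of the 12 low-score mice.

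The score, which chose the mice, averaged 2.72 ± 0.60 (SD, n = 12) in the high-score and -0.96 ± 0.55 (SD, n = 12) in the low-score group. The last mouse taken into the high-score group stood at 2.00 and the next below it at 1.71. The first taken into the low-score group stood at -0.43 and its neighbour just outside at -0.40. Over the 44 mice the score was above 0 in 26 and below 0 in 18, with a median of 0.45, so loss of these transcripts was the less frequent direction and the lower border cuts through closely spaced animals.

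Both limbs contributed to the gap between the groups. The mean of log2(CPM + 1) over both genes was higher by 2.30 in the cast limbs of the high-score mice and lower by 1.39 in their control limbs (the difference, high-score minus low-score, was -1.39). The cast limb thus carried 62.3% of the score gap of 3.68, and the control limb 37.7%. In the control limbs the mean level was 7.21 ± 0.96 (SD, n = 12) in the high-score and 8.59 ± 0.53 (SD, n = 12) in the low-score mice, and in the cast limbs 9.92 ± 1.15 and 7.63 ± 0.70. These levels entered the rule, so they carry no test.

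**Figure D2:**
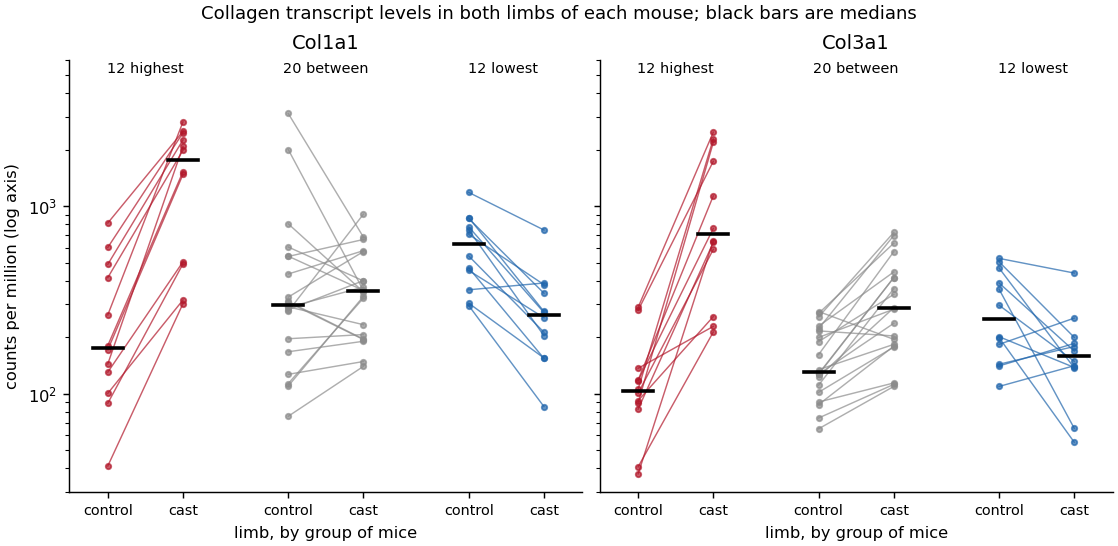
Levels in CPM of Col1a1 (left) and Col3a1 (right) on a log axis, with a line joining the control and the cast limb of each mouse and black bars at the medians. Control limbs of the high-score mice (red, median 176 CPM of Col1a1) sit below those of the low-score mice (blue, 624 CPM), and cast limbs sit above (1754 against 262 CPM).

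No difference in score by sex or by block of animal numbers passed the threshold. The rule did not use sex, but it left out mice by their numbers. This left 17, 15 and 12 mice in the blocks 1 to 20, 21 to 40 and 41 to 59. Males scored 0.65 ± 1.58 (SD, n = 23) and females 0.74 ± 1.46 (SD, n = 21), a difference of -0.09 with a standard error of 0.46 (permutation test, two-sided, p = 0.853). Females made up 6 of the 12 high-score and 5 of the 12 low-score mice (Fisher's exact test, two-sided, p = 1). Mice numbered 1 to 20 averaged 0.96, those numbered 21 to 40 averaged 0.71 and those numbered 41 to 59 averaged 0.29 (permutation test over the 3 blocks, p = 0.507). All 3 adjusted p were 1 (Benjamini-Hochberg). The series title names sex; the male minus female difference passed the threshold in none of its alternatives, with the lowest p at 0.168 for the control limb alone.

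The other genes were compared between the groups as a description, because the rule used the same limbs of the same mice. A gene's difference is the mean change in the high-score mice minus that in the low-score mice, and 1 on the log2 scale was the size counted. Of 12617 genes with a mean of at least 1 CPM, 1275 were higher in the high-score mice by that size (10.1%) and 9 were lower (0.0713%). In 40 genes (0.317%) every high-score mouse lay above every low-score mouse, and in 0 (0%) the reverse held. Without mice 13, 30 and 31 the counts were 759 and 10. The median difference over all genes was 0.23, and with TMM library sizes it was -0.01, a shift that applies to every gene, with 866 genes higher and 42 lower. In whole muscle, fewer cells of a type and less RNA per cell cannot be told apart.

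**Figure D3:**
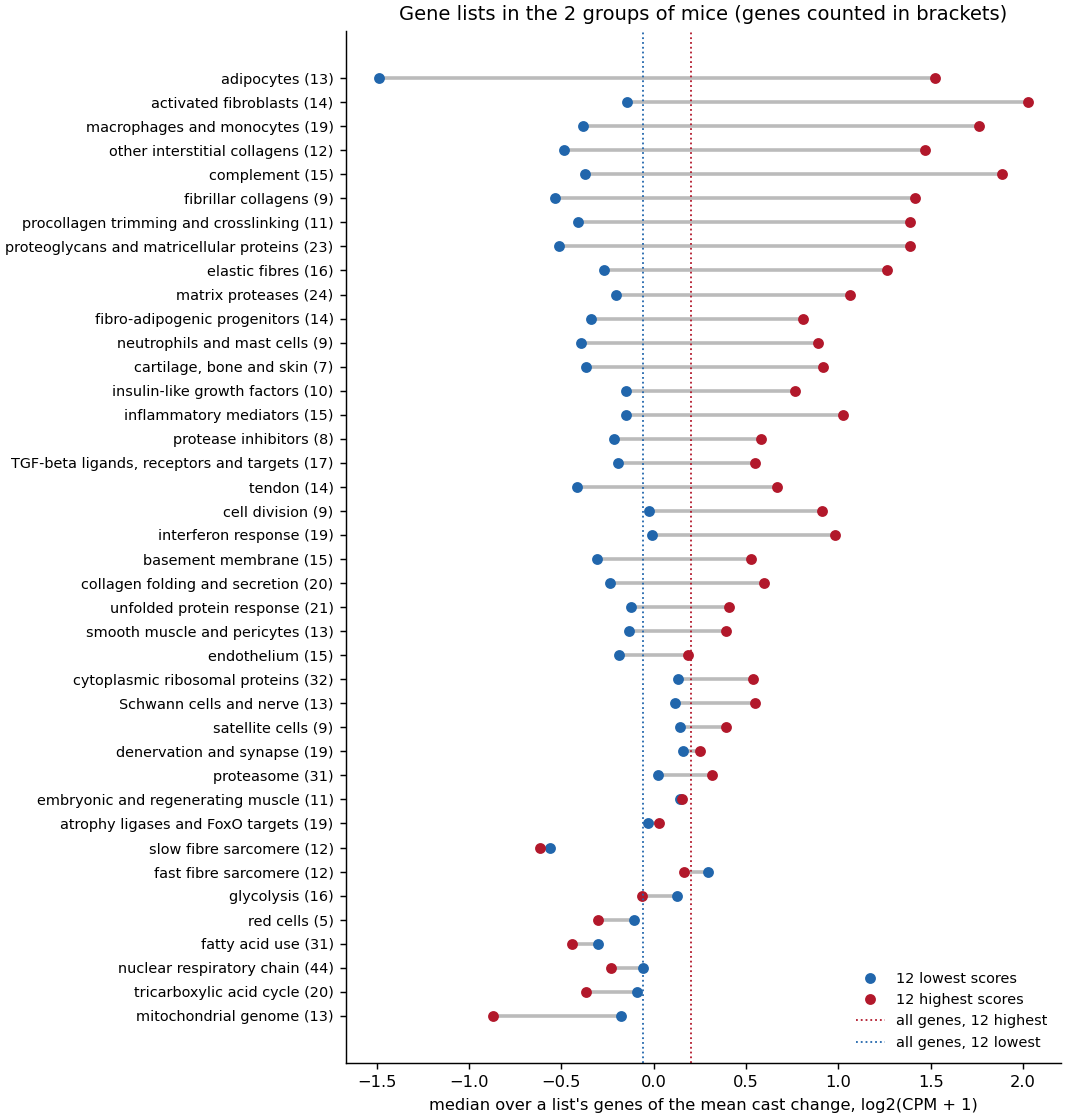
For each gene list with at least 5 genes counted (number in brackets), the median over its genes of the mean cast change in log2(CPM + 1), in red for the 12 highest and in blue for the 12 lowest scores; dotted lines give the medians of all genes, 0.20 and -0.06. Adipocyte, fibroblast, macrophage, complement and collagen lists span the widest gaps, and mitochondrial genes lie on the opposite side.

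Among the other fibrillar collagens, 6 of 9 genes were higher by at least 1 in the high-score mice, and the median of the 9 was 1.79 against 0.23 over all genes. Col1a2, the partner chain of Col1a1, had changes of 1.25, 2.27 and 3.36 (lowest, median and highest) in the high-score mice and by -1.82, -1.21 and 0.22 in the low-score mice. The groups did not overlap for this gene, and its mean difference was 3.25. Col5a1 and Col5a2 encode type V collagen, which starts and limits fibril growth; their differences were 2.63 and 2.80, again without overlap. Col11a1, a minor fibrillar chain of cartilage and tendon, differed by 1.80 and overlapped, since it was lower by 3.96 in the cast limb of high-score male 31.

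Of 12 other interstitial collagens counted, 10 were higher by at least 1, with a median of 1.95. Col6a1 and Col6a2, chains of the beaded type VI microfilaments around muscle fibres, were higher in the cast limb of all 12 high-score mice and lower in that of all 12 low-score mice. Col6a1 had changes of 1.69 ± 0.57 (SD, n = 12) and -0.52 ± 0.46 (SD, n = 12), and Col6a2 by 1.86 ± 0.59 and -0.54 ± 0.48. Col16a1 differed by 2.59 without overlap, and Col14a1, which coats fibrils, by 2.50 with overlap. Col12a1, a collagen of tendon and load-bearing tissue, ran from -1.04 to 2.14 in the high-score and from -2.31 to 2.15 in the low-score mice, so its groups overlapped fully at the top. Basement membrane genes were less apart: 4 of 15 passed 1, and the median was 0.79. The type IV chains Col4a1 and Col4a2 differed by 1.21 and 1.12 and the linker Nid1 by 1.09. With TMM library sizes 1 of 15 passed 1 and the median was 0.53. Col4a1, Col4a2 and Nid1 then stood below 1, at 0.93, 0.84 and 0.81.

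Of 11 trimming and crosslinking genes, 10 were higher by at least 1 (median 1.71). Lox, a lysyl oxidase that starts crosslinks, had changes of 1.10, 1.87 and 2.63 in the high-score and by -1.68, -0.47 and 0.67 in the low-score mice, and the ranges did not meet. Its relatives Loxl1 and Loxl2 differed by 2.29 and 2.18, and Pcolce, an enhancer of procollagen C-terminal cleavage, by 2.07, all 3 without overlap. Loxl2 was lower in the cast limb of all 12 low-score mice. The folding and secretion list was less apart, with 9 of 20 genes past 1 and a median of 0.72. Serpinh1, the collagen chaperone HSP47, differed by 1.83, the prolyl isomerase Fkbp10 by 2.03, the prolyl hydroxylase family member P3h3 by 1.48 and Sec24d, a coat protein of the vesicles that carry procollagen, by 1.58.

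Proteoglycans and matricellular proteins, which bind fibrils and cells, were higher by at least 1 in 16 of 23 genes (median 1.61). Fn1, fibronectin, had changes of 1.22, 2.56 and 3.36 in the high-score and by -2.23, -0.47 and 0.15 in the low-score mice. Sparc, a collagen-binding glycoprotein, had changes of 0.52, 1.43 and 2.11 and by -1.68, -0.89 and -0.33. Neither gene overlapped between the groups, nor did the proteoglycan Bgn, with a difference of 2.33. Postn, a fibroblast product of healing tissue, had the larger difference of 3.65, but it was lower by 1.40 in high-score female 27. Decorin, Dcn, the classical small proteoglycan of quiescent connective tissue, differed by 0.89, and Cilp by 2.38. Of 16 elastic fibre genes 15 passed 1 (median 1.47), with Fbn1, the microfibril protein fibrillin, at 2.23, Mfap5 at 1.97 and Ltbp2 at 2.70.

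Genes that break down matrix were higher too, and Mmp2, Mmp14 and Ctsk stood near 0 in the low-score mice. Of 24 proteases counted, 17 were higher by at least 1 (median 1.33). Mmp2, a gelatinase, had a mean change of 1.91 ± 0.61 (SD, n = 12) and 0.12 ± 0.45 (SD, n = 12), and Mmp14, the membrane protease that activates it, by 2.45 ± 0.91 and 0.32 ± 0.76. The cathepsin Ctsk, which cleaves native collagen, had changes of 2.65 ± 0.91 and -0.19 ± 0.75, without overlap. Mmp13, a collagenase, stood at a median of 0 CPM in the control limbs of both groups and at 22.1 and 0.787 CPM in the cast limbs of the high-score and low-score mice; its changes averaged 4.25 ± 2.22 and 1.81 ± 2.04 and overlapped. Mmp3 differed by 3.18 with overlap. Among their inhibitors Timp1 differed by 3.49 and Timp2 by 1.70, and 4 of 8 inhibitors passed 1.

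Of the TGF-beta list, ligands, receptors and targets of the main profibrotic growth factor, 8 of 17 genes passed 1 (median 0.98). Over all genes 10.1% did, with a median of 0.23. With TMM library sizes 6 of the 17 passed 1 (median 0.74). The ligand Tgfb1 had changes of 1.27 ± 1.05 (SD, n = 12) and -0.18 ± 0.51 (SD, n = 12). The targets Tgfbi and Ctgf differed by 1.88 and 1.26 (1.62 and 0.98 with TMM library sizes). Ctgf was lower in the cast limb of 9 low-score mice and higher in 10 high-score mice. Of the insulin-like growth factor genes 5 of 10 passed 1 (5 with TMM library sizes), with Igf1 at 1.81 and its binding protein Igfbp4 at 1.58.

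Of 14 genes of activated fibroblasts 13 passed 1 (median 2.09), among them the secreted factors Sfrp2 and Sfrp4 at 2.89 and 3.06 and Cthrc1 at 2.21. Of 14 markers of fibro-adipogenic progenitors 10 passed 1 (median 1.22). Pdgfra, their defining receptor, differed by 1.22, and Pi16 and Clec3b, markers of a less committed state, by 2.16 and 1.74. With TMM library sizes 6 of the 14 passed 1 (median 0.95). Pdgfra then stood below 1, at 0.95, and Pi16 and Clec3b above it, at 1.89 and 1.47. The summed progenitor markers lay at 513, 1180 and 2702 CPM in the control limbs of the high-score mice and at 953, 2152 and 5102 CPM in their cast limbs. In the low-score mice they lay at 1133, 2068 and 2379 CPM and at 744, 1954 and 2392 CPM, and none of the 14 was at 0 in a whole group. Their part in the collagen values was not tested.

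**Figure D4:**
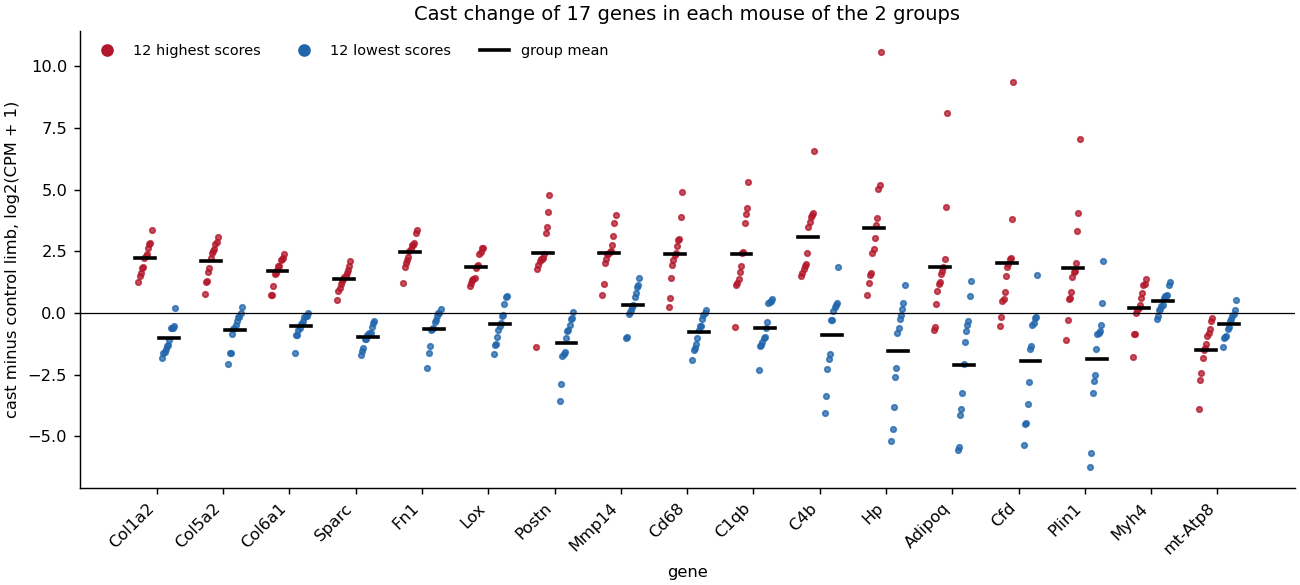
Cast minus control difference in log2(CPM + 1) of 17 genes, 1 point per mouse, in red for the 12 highest and blue for the 12 lowest scores, with black bars at the group means. Of the matrix genes at the left, Col1a2, Col5a2, Col6a1, Sparc, Fn1 and Lox form narrow, separate groups, while Postn and Mmp14 overlap. Hp, Adipoq, Cfd and Plin1 spread over more than 8 log2 units within the high-score mice, with male 31 highest.

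The largest single differences were not collagens. Hp, haptoglobin, a haemoglobin-binding protein made by liver, fat and myeloid cells, had changes of 0.75, 2.82 and 10.59 in the high-score and by -5.20, -0.71 and 1.15 in the low-score mice, a difference of 4.99. C4b, a complement component, differed by 3.98 and was higher in the cast limb of all 12 high-score mice. Of 15 complement genes 15 passed 1 (median 1.94), with Cfb, a part of the alternative pathway, at 3.06. This list shares C1qa, C1qb and C1qc with the macrophage list and Cfd with the adipocyte list. Of 19 macrophage and monocyte markers 17 passed 1 (median 2.07). Cd68 had changes of 0.24, 2.39 and 4.93 and by -1.91, -0.62 and 0.12, without overlap; Adgre1, which encodes F4/80, differed by 2.01, C1qb by 3.01 and C1qc by 2.53. The summed macrophage markers were 52.0, 147 and 235 CPM in the control and 129, 399 and 2426 CPM in the cast limbs of the high-score mice. They were 114, 195 and 269 CPM and 58.5, 158 and 307 CPM in the low-score mice. The chemokines Ccl8 and Ccl9 differed by 3.06 and 3.01. Interferon response genes passed 1 in 7 of 19 (median 0.85), with Irf7 at 1.78, and the interferon-induced Ifi27l2a differed by 3.54.

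Adipocyte markers had the widest gap of the lists, and it came from both groups in opposite directions. Of 13 genes 11 passed 1, with a median change of 1.53 in the high-score and -1.49 in the low-score mice (median difference 3.05). Adipoq, the fat cell hormone adiponectin, had changes of -0.70, 1.43 and 8.12 in the high-score and by -5.57, -1.62 and 1.30 in the low-score mice. The groups overlapped: 6 high-score mice lay above every low-score mouse. Cfd, adipsin, differed by 3.96, Plin1 and Cidec, coats of the lipid droplet, by 3.69 and 3.81, Scd1, a fatty acid desaturase, by 3.30 and Pck1 by 3.27. Without mice 13, 30 and 31 the median of the list was 2.18 and the difference of Adipoq 3.07. The summed adipocyte markers were 1009, 3060 and 5879 CPM in the control and 1771, 3809 and 12182 CPM in the cast limbs of the high-score mice. In the low-score mice they were 1847, 3641 and 18908 CPM and 1262, 2516 and 4636 CPM. None of the 13 was at 0 in a whole group, and their part in the other differences was not tested.

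Tendon markers were less regular. Of 14 genes 7 passed 1 (median 0.91); Tnmd, the tenocyte surface protein tenomodulin, differed by 1.39, Comp by 1.51, Thbs4 by 1.54 and the lubricating Prg4 by 2.12. The summed tendon markers were 232, 616 and 1428 CPM in the control and 424, 1380.5 and 3282 CPM in the cast limbs of the high-score mice, and 338, 897 and 2283 CPM and 297, 865 and 1382 CPM in the low-score mice. Male 31, which held the most adipocyte markers of its group, had the lowest changes of Tnmd (-3.17), Thbs4 (-1.36) and Abi3bp (-0.92). Keratins appeared among the differences through single animals: Krt14 and Krt5 had a median of 0 CPM in every group and limb, and differed by 1.33 and 1.44 with female 30 and by 0.35 and 0.55 without mice 13, 30 and 31.

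The high-score mice were not alike among themselves. Female 27 had a change of 3.84 in Col1a1 and of 0.74 in Col3a1, and had the highest Col1a2 change of the 12 (3.36). It also had the lowest change of Postn (-1.40), Timp1 (-1.61), Mmp14 (0.73), Cd68 (0.24) and C1qb (-0.57). Male 31 had a change of 4.60 in Col3a1 and of 2.20 in Col1a1, and had the highest change of Cd68 (4.93), C1qb (5.31), C4b (6.57) and Hp (10.59). Large changes of collagen transcript thus stood beside small macrophage changes in 1 animal and the largest in another.

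Cell division, protein folding stress and ribosomal genes were set beside the background, in which 10.1% of all genes passed 1 and the median was 0.23. Of 9 cell division genes 9 were above 0 with a median of 0.88, and 2 passed 1 (1 with TMM library sizes). Top2a stood at 1.48, and the proliferation marker Mki67, which lay just under 1 CPM, differed by 1.26. The unfolded protein response had 4 of 21 past 1 (2 with TMM library sizes; median 0.59), among them Pdia3 at 1.31 and Manf at 1.10. The 32 ribosomal protein genes were all above 0 with a median of 0.44, compared with 75.7% of all genes above 0, and only 2 passed 1, with Rpl3 at 2.05. With TMM library sizes that median was 0.16.

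Contractile genes differed by less than the size counted. Acta1 had changes of -0.12 ± 0.38 (SD, n = 12) in the high-score and -0.12 ± 0.33 (SD, n = 12) in the low-score mice. Myh4, the myosin of the fastest fibres, had changes of 0.19 ± 0.95 and 0.47 ± 0.46, and Myh7, slow myosin, by -0.53 ± 2.79 and -0.86 ± 1.81. Of the 12 fast and 12 slow sarcomere genes none passed 1 in either direction, and the medians were -0.11 and -0.04. With TMM library sizes these medians were -0.39 and -0.32. Of the fast genes 1 and of the slow genes 6 had a difference above 0, compared with 75.7% of all genes. The ubiquitin ligases Fbxo32 and Trim63, standard markers of atrophy, differed by -0.17 and -0.02, within the spread of either group. Within the same list Mt1 and Mt2, metallothioneins, differed by 1.59 and 1.97.

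Genes that denervated muscle is known to raise were uneven. Chrng, the fetal acetylcholine receptor subunit, differed by 1.31 at low levels, Chrna1 by 0.51 and Myog, a regulator of them, by 0.59. Runx1, which is also in the list of activated fibroblasts, differed by 1.70. Dach2, a repressor of Myog, was the exception: it had changes of -3.83, -1.08 and -0.12 in the high-score mice, lower in all 12, and by -1.45, 0.06 and 1.73 in the low-score mice, at a mean of only 1.77 CPM. Of the 19 genes of this list 2 were higher and 1 was lower by at least 1, and the higher share is close to the 10.1% of all genes. Ankrd1, a stress-induced titin-binding protein, differed by 1.54, but by -0.22 when 6 high-score and 6 low-score females alone were compared.

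Mitochondrial transcripts were the main group on the negative side. All 13 genes of the mitochondrial genome had a lower change in the high-score mice (median -0.69), although only mt-Atp8 passed -1. It had changes of -3.91, -1.34 and -0.22 in the high-score mice, lower in 12 of 12, and by -1.37, -0.44 and 0.54 in the low-score mice. Mt-Nd2 had changes of -1.05 ± 0.70 (SD, n = 12) and -0.18 ± 0.23 (SD, n = 12). With TMM library sizes the median of the 13 was -0.97. Mt-Atp8 then differed by -1.32 and mt-Nd2 by -1.15, so mt-Atp8 was no longer alone past -1. Nuclear lists of fibre metabolism followed at a smaller size. The tricarboxylic acid cycle list had a median of -0.30 and the nuclear respiratory chain -0.19 (-0.58 and -0.47 with TMM library sizes). Idh2, a mitochondrial dehydrogenase, differed by -0.86 and Fabp3, a fatty acid carrier, by -0.95. Perm1, a regulator of oxidative genes, differed by -0.94 and Fndc5, the irisin precursor, by -0.90. With TMM library sizes Idh2, Fabp3, Perm1 and Fndc5 passed -1, at -1.14, -1.23, -1.22 and -1.18. The regulator Ppargc1a differed by -0.09. Reads of mitochondrial genes can be shared with nuclear copies, so their counts are less certain.

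The 20 mice between the groups gave a test on animals that formed neither group, although the rule had ranked them by the same score. Their scores ran from -0.40 to 1.71, and edgeR's quasi-likelihood test asked, gene by gene, whether the cast change grew with the score, with each mouse as a block and the limb effect allowed to differ by sex. Values are slopes in log2 per unit of score with standard errors, and p-values were adjusted over 10919 genes by Benjamini-Hochberg. Score and genes were read from the same libraries, so features of a library can enter both. The slopes are therefore not support independent of the rule. Of these genes 15 rose with the score (0.137%) and 0 fell (0%); at an unadjusted p of at most 0.05 there were 388 and 268. DESeq2 called 33 rising and 4 falling.

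All 15 that rose had also differed by at least 1 between the groups, compared with 10.1% of all genes. With TMM library sizes, which the slopes used, Ctgf (0.98) and Lpar1 (0.94) differed by less than 1. Slopes and differences rest on the same score, so the overlap is a description. Fn1 rose by 1.01 ± 0.13 (SE, n = 20; edgeR adjusted p = 0.000505), Col5a2 by 0.86 ± 0.13 (edgeR adjusted p = 0.00261) and Col6a1 by 0.66 ± 0.10 (edgeR adjusted p = 0.00261). Col1a2 rose by 1.41 ± 0.23 and Col6a2 by 0.70 ± 0.12. The others of known matrix role were Sparc (0.91), Bgn (0.80), Lox (1.45), Ctgf (1.43), the thrombospondin Thbs2 (1.00) and the matrix-associated Abi3bp (1.47) and Fndc1 (0.79). The remaining genes were Emp1, a membrane protein (0.88), Cd109, a surface protein known to bind TGF-beta (1.84), and Lpar1, a receptor for lysophosphatidic acid (0.68). The 8 genes whose change was most like the score over these 20 mice, out of 8851, were Col5a2, Sparc, Fn1, Col6a1, Col1a2, Lpar1, Ctgf and Bgn, all among the 15, with Pearson correlations from 0.78 to 0.86 that are given as a description because they were picked as the highest.

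The call depended on 2 animals. Females 46 and 50 had the highest control levels of Col1a1 among the 20, 3115 and 2002 CPM, and the lowest Col1a1 changes of all 44 mice, -2.19 and -2.49, while their Col3a1 was higher in the cast limb by 1.65 and 1.69. Their summed tendon markers were 3159 and 1937 CPM in the control and 110 and 328 CPM in the cast limb. Without both mice the test called 2 genes rising, Fn1 and Col5a2, and all 15 slopes were still positive. Leaving out 1 mouse at a time gave 9 to 27 rising, the fewest without male 32 and the most without female 4.

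Slopes of the matrix lists were mostly positive, compared with 50.4% of all genes. The list counts and medians, those of the tendon markers included, rest on fits that hold mice 46 and 50. Their values without these mice are not given here. Only Fn1 and Col5a2 were still called without them. Of the proteoglycan and matricellular list 23 of 23 slopes were positive, 4 were called and 18 had an unadjusted p of at most 0.05, compared with 6.01% of all genes. Of other interstitial collagens 10 of 12 were positive and 2 called, of fibrillar collagens 6 of 7 were positive and 2 called, and of trimming and crosslinking genes 9 of 9 were positive and 1 called. Just past the threshold lay Pcolce, with a slope of 0.73 ± 0.16, and Prg4, with 2.10 ± 0.45 (edgeR adjusted p = 0.0611 for each). Slopes of Col5a1 (0.53 ± 0.14, edgeR adjusted p = 0.238), Loxl2 (0.68 ± 0.20, edgeR adjusted p = 0.371) and Dcn (0.50 ± 0.15, edgeR adjusted p = 0.390) did not pass. Tendon markers had positive slopes in 13 of 13 genes, of which 10 had an unadjusted p of at most 0.05 and 0 were called. Their median slope of 1.51 was the largest of the lists, above 0.86 for fibrillar collagens and 0.85 for the proteoglycan list, and their part in the matrix slopes was not tested. Tnmd had a slope of 1.57 ± 0.50 (edgeR adjusted p = 0.467).

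**Figure D5:**
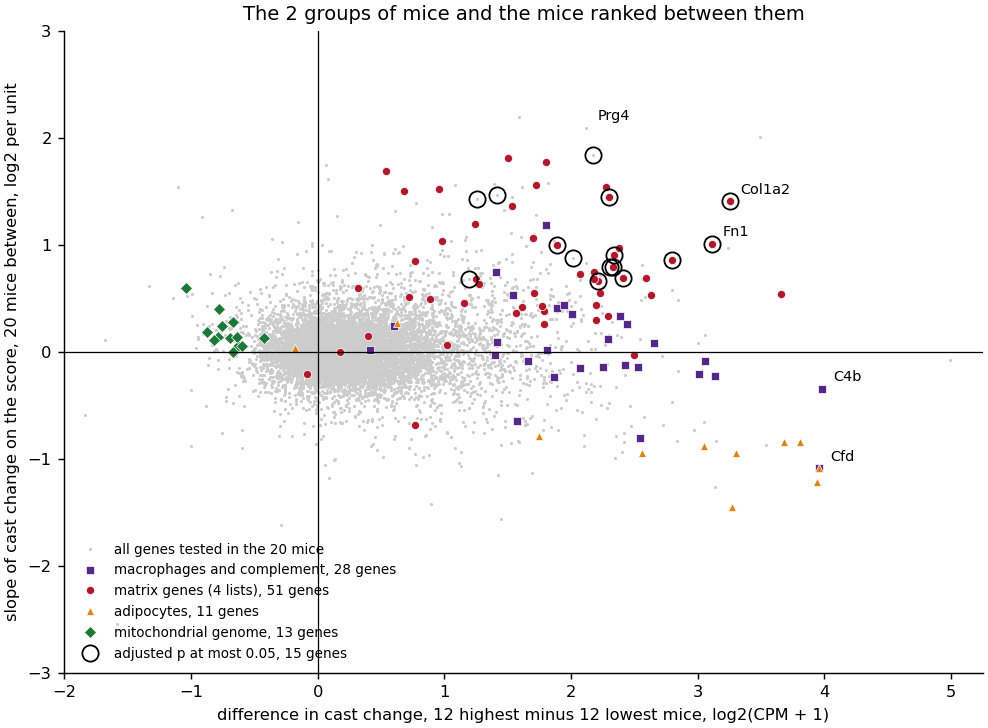
Each gene's difference between the 12 highest and 12 lowest mice in log2(CPM + 1) (x axis) against its slope on the score in the 20 mice between them in log2 per unit (y axis), with 1 gene beyond the axes; grey dots are all genes tested in both, coloured marks are list members and rings the 15 called genes. Ringed genes sit at the upper right, while C4b and most adipocyte genes have large differences on the x axis and slopes below 0.

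No gene of the adipocyte, macrophage or complement lists was called in the 20 mice. Adipoq had a slope of -1.21 ± 0.81 (edgeR adjusted p = 0.857) and Cfd of -1.08 ± 0.78 (edgeR adjusted p = 0.867), and 9 of 11 adipocyte genes had negative slopes. Cd68 stood at -0.22 ± 0.41, C1qb at -0.21 ± 0.27 and C4b at -0.34 ± 0.36, with edgeR adjusted p of 0.947, 0.926 and 0.905. Their direction is not fixed: without mice 46 and 50 the slope of Cd68 was 0.28, the slope of C1qb 0.0092 and the slope of C4b 0.0041. The slope of Adipoq was -0.39 and the slope of Cfd -0.25 without these mice. Of 16 macrophage markers tested 8 slopes were positive and 8 negative. The 13 mitochondrial genome transcripts, all with a lower change in the high-score group, had 13 positive slopes with a median of 0.14, and 0 were called. The difference of these slopes from those of the matrix genes was not tested. Between the extremes Postn (0.55 ± 0.51, edgeR adjusted p = 0.889), Serpinh1 (0.49 ± 0.17, edgeR adjusted p = 0.596), Ctsk (0.49 ± 0.24, edgeR adjusted p = 0.830) and Timp1 (2.01 ± 0.52, edgeR adjusted p = 0.205) had positive slopes that did not pass. The range of scores was narrower here than across the groups.

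Further genes outside the naming rule, chosen after their values were seen, belonged to the 40 without overlap between the groups. Thy1, a fibroblast surface marker, differed by 2.59 and was lower in the cast limb of all 12 low-score mice. S100a4, a calcium-binding protein of fibroblasts and leukocytes, differed by 2.80, Csf1, the macrophage growth factor, by 1.69 and the receptor tyrosine kinase Axl by 1.37.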

How the data were processed

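Stranded total RNA libraries from both gastrocnemius muscles of 56 mice were read from 2 deposited tables of raw counts per gene symbol, 1 per sex, which the authors made; for aligner, counter and build, each is not given in the sources used here. The tables held 32544 symbols, 0 rows without a gene, 0 columns without a sample and 0 identical libraries. Groups, limb, sex and animal numbers were taken from the labels. The number pairs the limbs of 1 animal: deviations from the group means correlated with a median of 0.39 within an animal and 0.03 between animals, above 0.1 in 41 of 44.

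CPM used column sums and a pseudocount of 1 CPM. Genes needed a mean of 1 CPM over the 48 libraries; Xist, Tsix and the Y-linked Ddx3y, Uty, Kdm5d and Eif2s3y were left out. The groups' contrast is descriptive, since the rule used the same values. The 20 other mice were tested with edgeR 4.0.16 in R 4.3.3 (TMM, filterByExpr, a term per mouse, limb, limb by sex, limb by score; threshold 0.05 after Benjamini-Hochberg over all genes), without Col1a1 and Col3a1; the script was checked on simulated data. DESeq2 1.42.0 was an alternative. Label tests used 100000 permutations or Fisher's exact test.

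Members, the 29 pathway and 12 marker lists and the tests were chosen with earlier results of these data known. Named genes were the 12 largest differences in each direction with a mean of at least 5 CPM and at least 10 of 12 mice of each group beyond the other group's median, the 8 called genes with the smallest p, up to 4 per list, a panel of 33 and the 8 most like the score; not all are printed. Lists whose median is not given elsewhere had these median differences: denervation 0.29, regenerating muscle 0.21 (-0.05 with TMM), proteasome 0.27 (-0.01 with TMM). Fatty acid use stood at -0.18, glycolysis at -0.14, inflammatory mediators at 1.07, protease inhibitors at 1.03, insulin-like growth factors at 1.07. Atrophy genes stood at -0.02, neutrophils and mast cells at 1.15, lymphocytes at -0.60 (1 gene), Schwann cells at 0.38. Endothelium stood at 0.46, smooth muscle at 0.49, satellite cells at 0.31, skin and cartilage at 1.09, red cells at -0.15.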

Additional observations from a re-analysis of the deposited data

Results flagged for a closer look

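These genes lay on opposite sides of 0 in every animal of the groups, higher in the cast limb of all 12 high-score mice and lower in that of all 12 low-score mice. Those flagged were Col6a1 (difference 2.21), Col6a2 (2.41), Loxl2 (2.18), Sparc (2.34) and Thy1 (2.59). All of them are among the 40 of 12617 genes (0.317%) without overlap between the groups. How many of all genes lay on opposite sides of 0 in this way is not given here. The difference was not tested, because the mice were chosen by collagen transcripts from the same libraries. In the 20 mice outside the groups Col6a1, Col6a2 and Sparc were called rising with the score by edgeR, but all 3 calls were lost without mice 46 and 50 (edgeR adjusted p = 0.0565 for the slope of Col6a1 and the slope of Col6a2 and 0.0756 for the slope of Sparc) and with no replicate block. Loxl2 and Thy1 were not called (edgeR adjusted p = 0.371 and 0.817).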

How the results depend on the processing

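Genes higher in the high-score mice by at least 1 numbered 1275. The count was 749 with a mean of at least 5 CPM, 2135 with 8 mice a group, 617 with 16, 3718 with all 56 mice ranked and 759 without mice 13, 30 and 31 (an alternative chosen after seeing the data); leaving out 1 mouse gave 1072 to 1412. The 9 lower genes became 42 with TMM, 26 with a pseudocount of 0.5 CPM, 5 with 5 CPM, 31 with 8 mice, 3 with 16, 133 with all 56, 19 with 6 of each sex, 35 in females alone, 105 in males alone, 30 with medians, 82, 21 and 15 without mice numbered 1 to 20, 21 to 40 and 41 to 59, and 6 to 20 without 1 mouse, so the lower side is poorly fixed. Of the printed differences of at least 1, that of Ankrd1 changed sign (-0.22 in females alone).

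The 15 rising and 0 falling genes of the 20 mice became 33 and 4 with DESeq2, 1 falling without a filter, 2 rising without mice 46 and 50 (chosen after seeing the data), 3334 and 3110 with the 12 left-out mice added, 9 to 27 rising and 0 to 1 falling without 1 mouse, and 1 rising with no replicate block; the pairing by animal is the main design. With the left-out mice added, slopes turned to 1.06 for Cd68, 0.84 for C1qb, 1.20 for C4b, 0.80 for Adipoq, 0.95 for Cfd and -0.14 for Tnmd; without mice 46 and 50 the slope of Cd68 was 0.28, the slope of C1qb 0.0092 and the slope of C4b 0.0041. Without 1 mouse they ran from -0.37 to 0.12 for Cd68 and from -0.27 to 0.012 for C1qb. The male minus female score was 0.081 with Col3a1 alone (permutation p = 0.871). Other causes of these shifts were not tested. Genes near 1 CPM rest on about 4 counts per library, and the labels' protocols name no molecular identifiers.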
